A study of Mus musculus with 222 samples.

Results

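The interferon response genes are a set of 41 genes that cells switch on after they meet an interferon or sense foreign nucleic acid. Each gene was read from the probe set that carried its symbol alone and, where there were several, from that with the highest mean. Of the 41 genes, 38 had such a probe set, out of 19938 genes measured in this way. Isg15 and Gbp2 occurred only on probe sets with several symbols and Ifi44 on none in the annotation table used here, so these 3 genes were not analysed. Of the 38 genes, 37 had 1 usable probe set and Irf1 had 2.

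Total RNA of spontaneous mouse mammary tumors (214 arrays of 212 tumors, judged by name) and of 8 normal mammary glands was profiled on Affymetrix arrays (Mouse Gene 1.0 ST). All tumor mice carried MMTV-ErbB2, a transgene in which the promoter of the mouse mammary tumor virus, active mainly in mammary epithelium, drives the ErbB2 protooncogene. Tumors came from 3 genetic backgrounds: FVB/N (FVB, 26 arrays), the F1 of C57BL/6 and FVB/N (F1, 28 arrays), and the backcross of that F1 to FVB/N (F1BX, 160 arrays). Of the glands, 3 were FVB MMTV-ErbB2, 2 were F1 MMTV-ErbB2 and 3 were F1 wild type, and the labels give neither the age of the mice nor how glands were collected. Each F1BX mouse has its own mixture of C57BL/6 and FVB alleles. Judged by the array names, 38 mice contributed more than 1 tumor, and 035T1R and 246T1R are second arrays of 035T1 and 246T1. For 051T1 and 063T1 the label (F1 and FVB) was kept although each name looks like that of an F1BX tumor. Values are log2 expression, normalized by robust multiarray average (RMA) by the authors, so that a difference of 1 is a 2-fold change. No detection values were used, so a low value is not shown to lie above background. RNA came from whole tissue, in which fewer cells of a type and less RNA per cell cannot be told apart.

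Interferons are secreted proteins of infected or alarmed cells. Type I interferons bind the IFNAR receptor and, through JAK1 and TYK2, activate a complex with STAT2 and IRF9 that binds the interferon-stimulated response element (ISRE) of its target genes. Type II interferon, made mainly by T cells and NK cells, acts at the gamma-activated site (GAS). The target genes block the translation and spread of viruses, amplify the sensing of nucleic acids, load peptides on MHC class I and attract T cells. In tumors the same genes can be expressed by the cancer cells or by infiltrating cells.

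The arrays fell into 2 kinds that were kept apart. In 34 arrays the interquartile range of the values was 1.86 to 2.62 (the narrow arrays: all 8 glands, 20 F1BX and 6 F1 tumors), and in 188 arrays it was 3.04 to 3.35 (the wide arrays: 140 F1BX, 22 F1 and 26 FVB tumors). Erbb2 was 11.97 ± 0.99 (SD, n = 26) in narrow tumors and 12.40 ± 0.29 (SD, n = 188) in wide tumors, against 9.32 ± 0.94 (SD, n = 8) in glands, and it lay within the range of the glands in 4 tumors (168T1, 076T1, 092T1 and F1_26T1). In 168T1 and 092T1 the epithelial gene Epcam was 6.49 and 6.39, against medians of 12.36 in wide and 12.46 in narrow tumors. Glands had the epithelial keratin Krt8 at 11.58 to 13.27, and the mean of 5 adipocyte markers was 7.12 to 7.72, with Fabp4 highest (9.75 to 11.96) and Adipoq lowest (5.47 to 6.08, median 5.86, against 5.84 in narrow tumors). Among glands, FVB MMTV-ErbB2 replicate 1 had the highest value of 35 of the 38 genes, and FVB MMTV-ErbB2 replicate 3 the lowest value of 27. The latter also had the smallest interquartile range (1.86, against 2.20 to 2.36 in the other glands) and the lowest mean of 3 leukocyte markers (8.67, against 9.73 to 11.58). Between the kinds of array, within F1BX tumors, 2 of the 38 genes differed at an adjusted p under 0.05 and a fold of at least 2, both lower in narrow arrays. They were Dhx58 (log2 difference −1.05, SE 0.166, limma adjusted p = 4.23e-09) and Ifi35 (−1.02, SE 0.0925, limma adjusted p = 5.11e-21). Over all probe sets, 5.49% were higher and 6.29% lower in narrow arrays by the same rule. With no fold, an unadjusted p under 0.05 (limma) was reached by 27 of the 38 genes (71.1%), against 85.3% of all probe sets.

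The promoters of the members were searched for the ISRE, the element through which the type I response is known to act, and some with a match are shown. Promoter sequences of 250 bases before to 50 bases after the start were taken from RefSeq (GRCm38.p6) and matched 29 of the 38 measured genes. The core of the ISRE was searched as GAAANNGAAA on both strands. It occurred in 12 of the 29 genes (41.4%), against 3.99% of the 27025 genes with a promoter in the table. The GAS was searched as TTCNNNGAA, which reads the same on both strands, and occurred in 8 of the 29 (27.6%), against 9.55% of all genes. The following stretches, each from 30 bases before to 30 bases after the match without passing the start of the gene, show the core in capitals on the strand of the gene.
Ifit1: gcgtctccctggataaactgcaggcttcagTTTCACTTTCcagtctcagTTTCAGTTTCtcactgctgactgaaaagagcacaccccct
Ifit3: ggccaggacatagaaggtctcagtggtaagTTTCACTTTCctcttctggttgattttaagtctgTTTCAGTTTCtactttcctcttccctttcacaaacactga
Rsad2: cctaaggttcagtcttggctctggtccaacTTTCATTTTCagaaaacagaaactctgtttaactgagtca
Oas1a: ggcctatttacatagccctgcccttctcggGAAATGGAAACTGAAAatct
Gbp3: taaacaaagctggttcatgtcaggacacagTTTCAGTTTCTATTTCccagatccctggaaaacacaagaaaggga
Cxcl10: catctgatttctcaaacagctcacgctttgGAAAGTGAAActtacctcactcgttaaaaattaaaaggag
In GRCm38.p6 these stretches lie at chr19:34640755-34640843 (plus strand, Ifit1), chr19:34583343-34583446 (plus strand, Ifit3), chr12:26456533-26456602 (minus strand, Rsad2), chr5:120907526-120907575 (minus strand, Oas1a), chr3:142559969-142560043 (plus strand, Gbp3) and chr5:92349063-92349132 (minus strand, Cxcl10). All lie upstream of their gene, in its promoter. The capitals of Ifit1 end 76 bases before its start, and those of Oas1a lie between 20 and 5 bases before it. In Ifit1 and Ifit3 the core occurs at 2 separate places, and in Oas1a and Gbp3 2 cores overlap. The other genes with a core in this window were Stat2, Ifih1, Ddx58, Bst2, Eif2ak2 and Oas3. These letters are not in the windows of Irf1, Irf7, Irf9, Trim25, Ifit2, Isg20, Cmpk2, Samd9l, Oasl1 and Oasl2. Nor are they in those of Dtx3l, Ifi35, Xaf1, Psmb8, Psmb9, Tap1 and Cxcl9, the last of the matched genes. A match is a run of letters and not a measured binding site.

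The first comparison asked how the genes differed between tumors and normal glands. It was made among the narrow arrays (26 tumors and 8 glands), which hold all glands. No FVB tumor is among these arrays, whereas 3 of the 8 glands are FVB, so background was not matched between tumors and glands. Cxcl10, Ifit2, Rsad2, Irf1, Oasl1, Cxcl9 and Mx2 were lower in tumors, and Eif2ak2, Irf7 and Irf9 were higher. Cxcl10 differed most, with a 13.99-fold lower level in tumors. Thus 3 of the 38 genes were higher and 7 lower at a false discovery rate (FDR) no higher than 0.005 with a change of 2-fold or more, and 28 did not pass. Over all probe sets, 7.37% were higher and 4.76% lower by the same rule. At an adjusted p under 0.05 with no fold, 7 genes were higher and 9 lower, against 22.5% and 29.6% of all probe sets. The median log2 difference was −0.03 over the 38 genes and −0.09 over all probe sets. The standard error of limma pools both groups, and where glands varied more than tumors it understates the error of the gland mean.

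**Figure D1:**
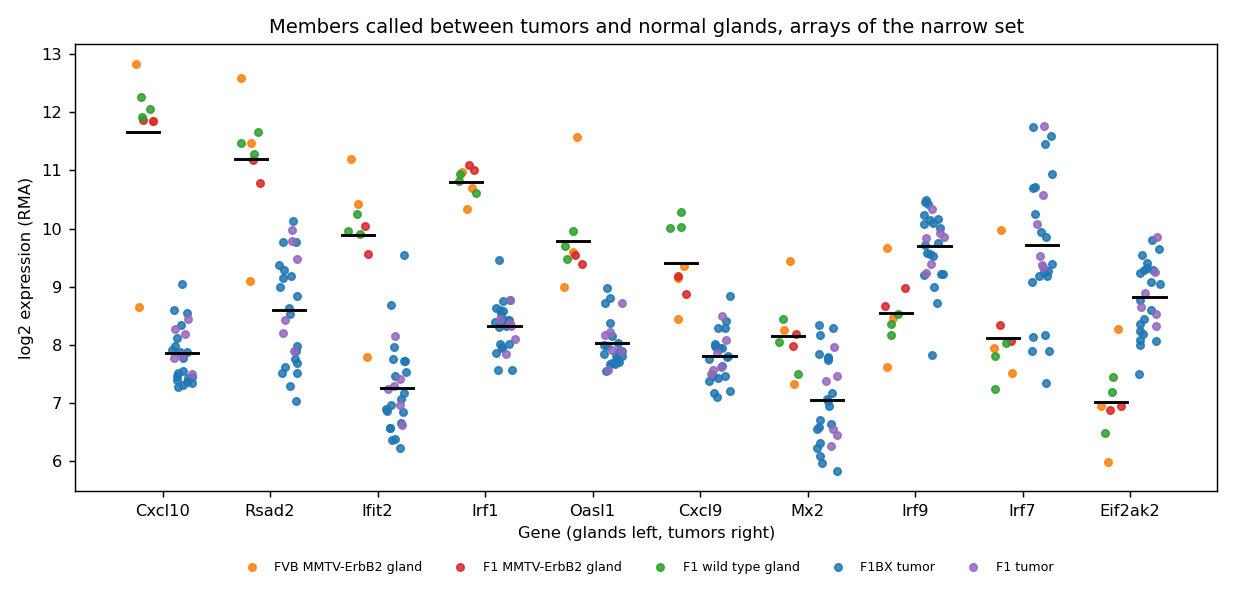
Log2 expression (y axis) of the 10 interferon response genes that differed between tumors and glands, 1 point per narrow array, with glands at the left and tumors at the right of each gene, colored by kind of gland or background, and horizontal lines at the means. For Cxcl10 the tumors lie between 7.28 and 9.05 and the glands between 8.65 and 12.82, and for Irf1 and Oasl1 the groups do not overlap.

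The 2 measured chemokines, Cxcl9 and Cxcl10, encode ligands of CXCR3, the receptor that draws activated T cells into tissue. Cxcl10 was 11.87 and 11.85 in F1 MMTV-ErbB2 glands, 11.91, 12.05 and 12.26 in F1 wild type glands, and 12.82, 11.85 and 8.65 in FVB MMTV-ErbB2 glands. In the 26 narrow tumors it ranged from 7.28 to 9.05 with a median of 7.80. All but 1 of the tumors thus lay below every gland, and 7 of the glands lay above every tumor. The log2 difference was −3.81 (SE 0.279, limma adjusted p = 1.53e-13). Cxcl9 was 8.44 to 10.29 in glands (median 9.27) and 7.11 to 8.84 in tumors (median 7.80), with 24 of 26 tumors below every gland. Its log2 difference was −1.603 (SE 0.189, limma adjusted p = 7.41e-09).

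Among the transcription factors, Irf1 differed in one direction and Irf7 and Irf9 in the other. Irf1, which type II interferon and inflammatory signals induce, was 10.81 ± 0.25 (SD, n = 8) in glands and 8.33 ± 0.42 (SD, n = 26) in tumors, and all 26 tumors lay below all glands. The log2 difference was −2.48 (SE 0.152, limma adjusted p = 1.55e-15), and −1.52 when both probe sets of Irf1 were averaged. Irf7, the factor that amplifies the production of type I interferon, spread widely in tumors, from 7.35 to 11.75 with a median of 9.46, against 7.25 to 9.97 with a median of 7.99 in glands. Only 10 of 26 tumors lay above every gland, and the log2 difference was 1.604 (SE 0.447, limma adjusted p = 0.00301). The call of Irf7 was lost when any 1 of 6 glands was left out, with adjusted p from 0.0058 to 0.0097 (limma). Irf9, the DNA-binding subunit of the complex at the ISRE, was 8.56 ± 0.60 (SD, n = 8) in glands and 9.69 ± 0.61 (SD, n = 26) in tumors, with a log2 difference of 1.14 (SE 0.236, limma adjusted p = 0.000125). Against the MMTV-ErbB2 glands alone the calls of Irf9 (1.02, limma adjusted p = 0.00549) and Irf7 (1.35, limma adjusted p = 0.0461) were lost. Stat2, its partner, had a log2 difference of −0.07 (limma adjusted p = 0.824).

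The antiviral effectors also divided. Eif2ak2, the kinase PKR that halts translation on double-stranded RNA, was higher in tumors, at 7.498 to 9.86 (median 8.83) against 5.99 to 8.27 (median 6.96) in glands, and 20 of 26 tumors lay above every gland. The log2 difference was 1.80 (SE 0.247, limma adjusted p = 1.59e-07). Ifit2, whose protein binds viral RNA, was lower in tumors, at 6.22 to 9.54 (median 7.13) against 7.80 to 11.20 (median 10.00), with 22 tumors below every gland and a log2 difference of −2.64 (SE 0.313, limma adjusted p = 8.76e-09). Rsad2, which encodes the antiviral enzyme viperin, was also lower, at 7.04 to 10.12 (median 8.59) against 9.09 to 12.59 (median 11.37), with a log2 difference of −2.59 (SE 0.364, limma adjusted p = 2.57e-07). Mx2, a dynamin-like GTPase, was lower by a smaller amount (−1.10, SE 0.285, limma adjusted p = 0.00149), and this call was lost without FVB MMTV-ErbB2 replicate 1 (−0.92, limma adjusted p = 0.00784), against the MMTV-ErbB2 glands alone (−1.19, limma adjusted p = 0.00654) and with all tumor arrays (−0.49, limma adjusted p = 0.136). Oasl1, a member of the 2-5A synthetase family that represses the translation of Irf7, was 7.55 to 8.97 in tumors and 9.002 to 11.58 in glands, without overlap, and its log2 difference was −1.75 (SE 0.196, limma adjusted p = 2.44e-09).

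The neighbours of these genes within a family did not all pass. Ifit1 and Ifit3 had log2 differences of −0.82 (SE 0.434, limma adjusted p = 0.109) and −0.65 (limma adjusted p = 0.266), while Ifit2 fell. Of the other 2-5A synthetase genes, Oas1a, Oas2, Oas3 and Oasl2 had log2 differences of 0.58, 0.53, 0.01 and 0.89, none of which passed. None of the 5 nucleic acid sensors and their regulator passed (log2 differences from −0.41 for Trim25 to 0.66 for Dhx58). The same held for the 3 genes of antigen processing, Psmb8 (−0.64), Psmb9 (−0.24) and Tap1 (−0.21), which encode immunoproteasome subunits and the peptide transporter. Usp18, the protease that removes ISG15, had a log2 difference of 0.98 (limma adjusted p = 0.0403), which met neither threshold. The groups did not overlap for 2 of the 38 genes (5.26%), against 6.05% of all probe sets.

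**Figure D2:**
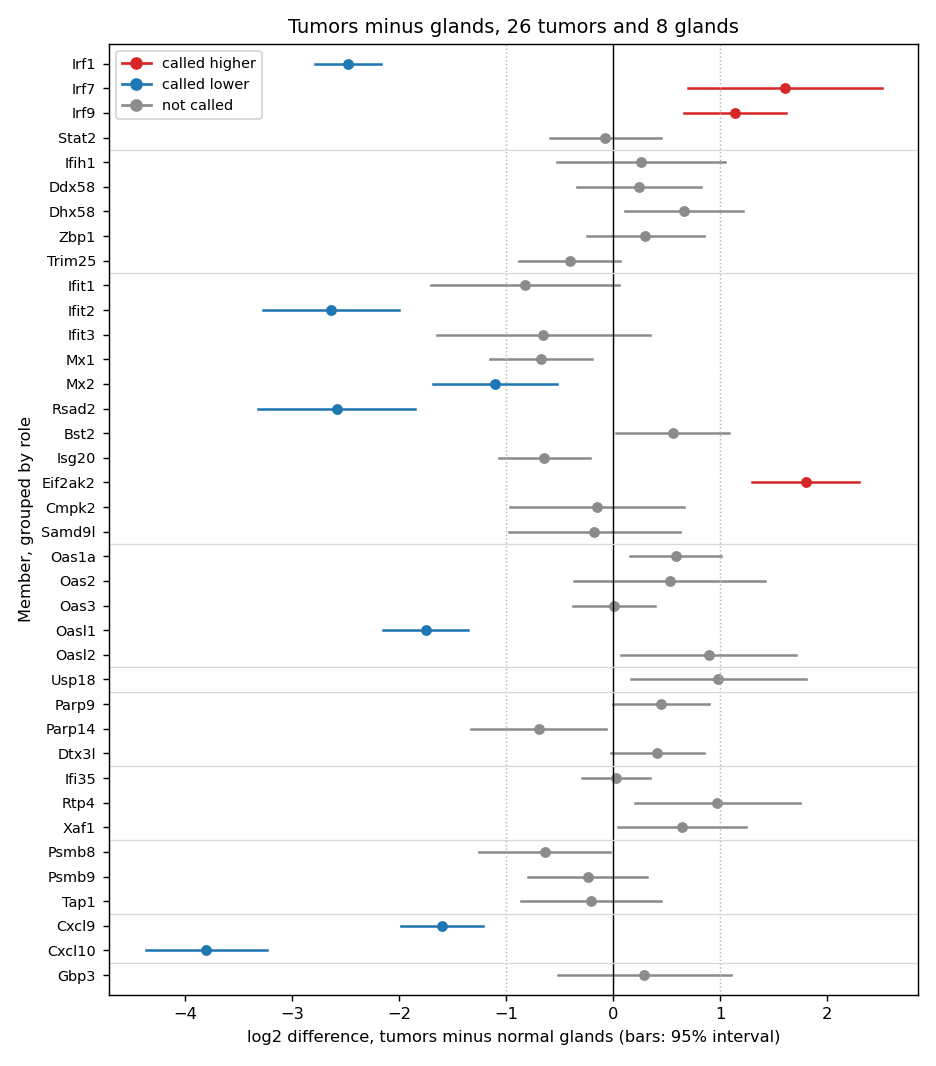
Log2 difference between narrow tumors and glands (x axis, tumors minus glands) for the 38 measured interferon response genes (y axis), grouped by role, with bars for the 95% interval, red for genes called higher, blue for genes called lower, grey for the others, and dotted lines at a 2-fold difference. Cxcl10 lies lowest at −3.81 and Eif2ak2 highest at 1.80, and 28 of the genes did not pass.

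Other genes of the pathway moved in both directions as well. Of 16 interferon genes measured, Ifnb1, the gene of interferon beta, was lower in tumors (−1.18, SE 0.131, limma adjusted p = 1.91e-09) and 15 did not pass. Ifnb1 was only 5.81 to 7.30 in glands, a level not shown to lie above background. Of 25 receptors and signaling genes, 2 were higher and 7 lower. Tlr3, a sensor of double-stranded RNA, was higher by 2.52 (SE 0.222, limma adjusted p = 1.12e-11) and Mavs, the adaptor of the cytosolic RNA sensors, by 1.10 (limma adjusted p = 2.72e-07). Socs3, a feedback inhibitor of cytokine receptors, fell by 2.61 (limma adjusted p = 2.59e-15) and Jak2, a kinase of the type II receptor, fell by 1.91 (limma adjusted p = 2.91e-08). Ifngr1, Jak1, Irf2, Irf5 and Irf8 were the other genes of this list that fell. Of 25 further interferon-induced genes, Lgals3bp (1.73) and Pnpt1 (1.63) were higher, and Cd274, which encodes the checkpoint ligand PD-L1, was lower by most (−3.58, limma adjusted p = 1.06e-16), with Slfn5, Sp100 and Ciita. None of 7 genes of MHC class I and its assembly passed.

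Markers of immune cells moved with this comparison. All 6 measured T cell markers, 5 of 6 markers of B and plasma cells and all 3 leukocyte markers were lower in tumors. The mean of the T cell markers was 7.59 to 9.21 in glands and 6.29 to 6.71 in tumors, and that of the B and plasma cell markers was 7.28 to 9.504 in glands and 5.95 to 6.96 in tumors, so neither overlapped. The T cell gene Cd3e was 9.28 ± 0.48 (SD, n = 8) in glands and 7.51 ± 0.19 (SD, n = 26) in tumors. The mean of the 3 leukocyte markers was 8.67 to 11.58 in glands and 7.80 to 10.03 in tumors. Of 8 NK cell markers 1 was lower, with means of 6.46 to 7.41 in glands and 5.92 to 6.35 in tumors. Of 9 macrophage markers 2 were higher in tumors (C1qa and C1qc), with means of 8.10 to 9.52 in glands and 8.14 to 10.91 in tumors. Of 6 markers of plasmacytoid dendritic cells 1 was lower, of 7 markers of mammary epithelium 1 was higher (Elf5) and 2 lower (the basal keratins Krt14 and Krt5), and of 5 adipocyte markers 1 was lower (Fabp4). The plasmacytoid dendritic cell marker listed as Klk1 was read from a probe set of Klk6, so Klk1 itself was not measured. The part of these cell types in the differences of the interferon response genes was not tested.

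No difference by genotype or background was called among the glands. Between 2 MMTV-ErbB2 and 3 wild type F1 glands, none of the 38 genes was called at an adjusted p under 0.05 (0% of all probe sets, limma), and 2 of the 38 (5.26%) had an unadjusted p under 0.05, near the 4.85% of all probe sets. Cxcl9 was 8.87 and 9.19 in the F1 MMTV-ErbB2 glands and 10.29, 10.00 and 10.02 in the F1 wild type glands. Cell markers also differed between these glands, and not all in the direction of Cxcl9. The mean of the T cell markers was lower in the wild type glands, at 8.55, 7.59 and 7.78 against 9.04 and 8.88. That of the mammary epithelium markers was higher in the wild type glands, at 11.87, 12.06 and 11.69 against 9.74 and 10.73. With 2 glands against 3, groups can separate by chance, and the part of these cell types was not tested. For Cxcl9 the log2 difference was −1.08 (SE 0.308, limma adjusted p = 0.721). Without FVB MMTV-ErbB2 replicate 3, which is in neither group but enters the estimate of the spread, the same difference had an SE of 0.176 and passed (limma adjusted p = 0.0216). Cxcl9 was then 1 of 38 genes (2.63%) called lower, with 1.01% of all probe sets lower and 1.97% higher, so the count of 0 over all probe sets also rests on that gland. Between 3 FVB and 2 F1 MMTV-ErbB2 glands no gene was called either (0% of all probe sets, limma), and none of the 38 had an unadjusted p under 0.05, against 1.35% of all probe sets. The 95% interval of Ifit1 in this comparison ran from −2.36 to 2.18, so large differences would not have been detected.

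Among tumors, the second comparison asked whether the genetic background changed the level of these genes. Across the wide arrays none of the 38 genes was called between F1 and FVB tumors, between F1BX and FVB tumors or between F1BX and F1 tumors at an adjusted p under 0.05. Over all probe sets 12.3%, 6.74% and 3.65% were called by the same rule. An unadjusted p under 0.05 was reached by 4, 5 and 0 of the 38 genes (10.5%, 13.2% and 0%), against 28.3%, 20.8% and 20.6% of all probe sets. These 3 comparisons share tumors and come from 1 fit with the mouse as a random block.

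The largest difference was that of Ifit3, which encodes an antiviral partner of Ifit1. In FVB tumors it ranged from 6.50 to 9.12 (median 7.37, n = 26), in F1 tumors from 6.19 to 10.60 (median 7.88, n = 22) and in F1BX tumors from 5.34 to 11.58 (median 8.12, n = 140). The ranges overlapped broadly, and the F1BX tumors reached both lower and higher. The log2 difference of F1BX and FVB tumors was 0.74 (95% interval 0.23 to 1.24, limma adjusted p = 0.0574). Cxcl10 was 6.94 ± 0.42 in FVB (SD, n = 26), 7.38 ± 0.61 in F1 (SD, n = 22) and 7.32 ± 0.62 in F1BX tumors (SD, n = 140), and it missed the threshold against FVB in F1 (log2 difference 0.42, SE 0.174, limma adjusted p = 0.0896) and in F1BX tumors (0.37, SE 0.128, limma adjusted p = 0.0585). Psmb9 and Tap1, which lie side by side in the MHC region, had log2 differences of −0.49 (SE 0.222, limma adjusted p = 0.126) and −0.45 (limma adjusted p = 0.133) between F1 and FVB tumors. Irf7 was 9.88 ± 0.69, 9.55 ± 0.98 and 9.93 ± 1.06 in FVB, F1 and F1BX tumors. The 95% interval of its difference between F1BX and FVB tumors was −0.38 to 0.47.

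Some genes upstream of the response did differ by background in the wide arrays. Between F1 and FVB tumors, 4 of 25 receptors and signaling genes were higher in F1, among them the receptor chains Ifnar1 (0.19), Ifnar2 (0.29) and Ifngr2 (0.35), and 2 were lower, Jak1 (−0.77, limma adjusted p = 4.63e-05) and Irf3 (−0.18). By the same rule 12.3% of all probe sets were called in this comparison, with 2055 of 35556 higher in F1 and 2302 lower. Ifnar1, Ifnar2 and Ifngr2 all lie on chromosome 16, and whether they differ independently was not tested. Of the further interferon-induced genes, Ifitm3 and Pml were higher and Iigp1 lower in F1 (−1.26, SE 0.385, limma adjusted p = 0.0178). Between F1BX and FVB tumors Jak1 was lower as well (−0.48). Of 9 macrophage markers 4 were higher in F1 than in FVB tumors, with Adgre1 at a log2 difference of 0.49.

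In the narrow arrays none of the 38 genes was called between F1BX and F1 tumors (0% of all probe sets, limma), and 1 (2.63%) had an unadjusted p under 0.05, against 5.43% of all probe sets. This was Bst2, which encodes tetherin, with a log2 difference of −0.82 (SE 0.269, limma adjusted p = 0.864), against 0.12 in the wide arrays. The interaction of background and kind of array called none of the 38 genes (0% of all probe sets, limma). It had an unadjusted p under 0.05 for 1 of them (2.63%), against 6.13% of all probe sets, again Bst2, at −0.93 (limma adjusted p = 0.725).

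The level of the genes varied widely from tumor to tumor. Over the wide tumors their median SD was 0.72, against 0.24 over all probe sets, and 20 of the 38 (52.6%) had an SD of at least 0.7, against 3.40% of all probe sets. Ifit3 varied most (SD 1.22, from 5.34 to 11.58), followed by Usp18 (1.13), Ifit1 (1.06), Oas2 (1.06) and Oasl2 (1.03). Irf1 (0.33) and Trim25 (0.35) varied least.

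The levels of the genes were closely correlated from tumor to tumor. Over 1 wide array of each mouse (22 FVB, 16 F1 and 93 F1BX), the median Pearson correlation of the 703 pairs of genes was 0.80, and 656 pairs (93.3%) had a correlation of at least 0.5. Pairs of a member and another gene had a median of −0.03, and 0.634% of them reached 0.5. The median over pairs was 0.76 in FVB, 0.85 in F1, 0.81 in F1BX and 0.76 in the narrow tumors (24 mice). It was 0.80 without 168T1, the wide tumor with low Erbb2 and Epcam. Arrays share their normalization, and these correlations are given as a description.

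Genes differed in how closely they followed the others. Ifit1 (median correlation with the other genes 0.87), Usp18 (0.86) and Irf7 (0.86) followed most closely. Isg20, an exonuclease, followed least (0.23), and its lowest correlation was −0.01 with Samd9l. Irf1 (0.56), Cxcl9 (0.59) and Cxcl10 (0.60) lay between. Of the 47 pairs with a correlation under 0.5, 37 held Isg20. Cxcl10 correlated most with Oasl1 (0.79), Oas3 (0.79) and Mx1 (0.78). The closest pairs were Psmb9 with Tap1 (0.96) and Ifit1 with Usp18 (0.95).

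**Figure D3:**
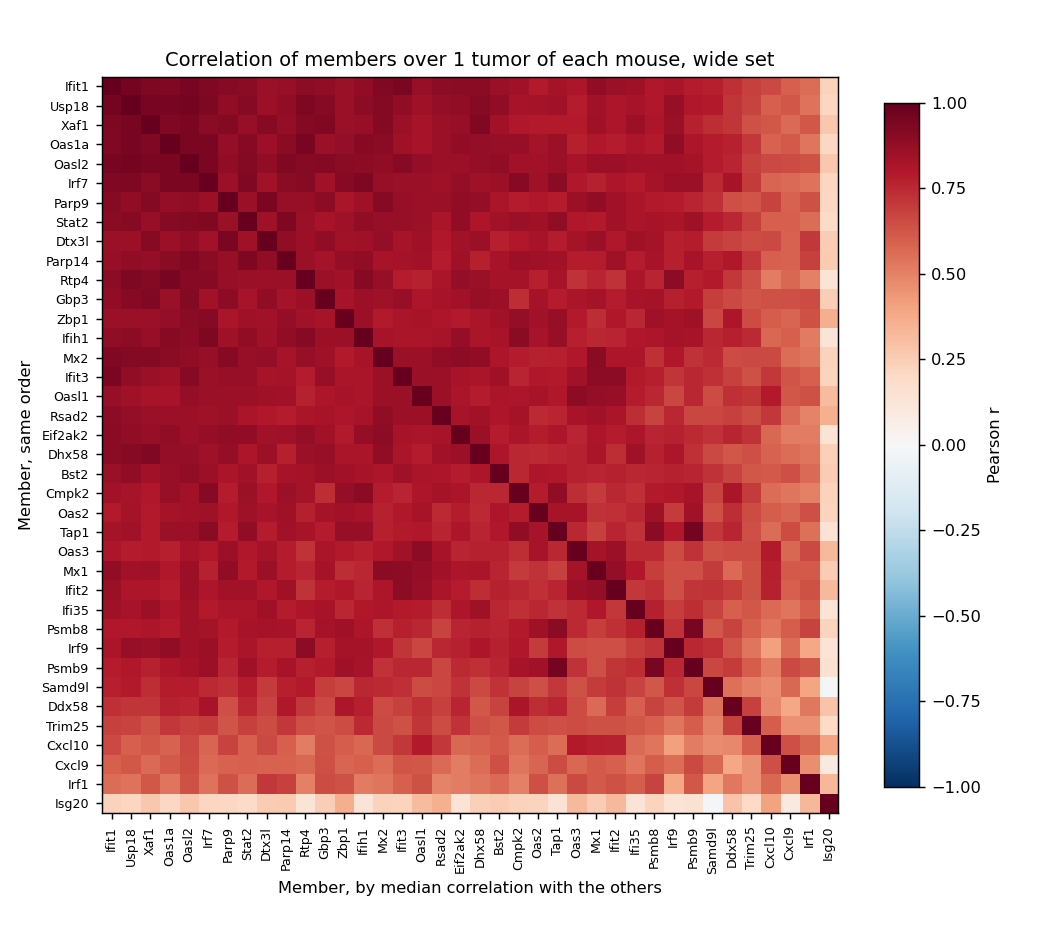
Pearson correlation (color scale) between each pair of the 38 interferon response genes over 1 wide tumor array of each mouse, both axes ordered by the median correlation of the gene with the others. Most squares lie at 0.5 or above, and the row of Isg20 stands out with a median of 0.23.

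Outside the 38 genes, Parp12 (median correlation with the members 0.86), Herc6 (0.85), Adar (0.83), Irgm1 (0.83) and Lgals9 (0.82) were the closest of the further interferon-induced genes. That list had a median of 0.61 with the members and the genes of MHC class I had 0.58. Of the cell type markers, those of NK cells correlated most (median 0.34, with Klrk1 at 0.53, Nkg7 at 0.49 and Gzmb at 0.48, but Klrb1c at 0.12, Eomes at 0.11 and Prf1 at −0.04), those of T cells had a median of 0.22 and those of macrophages 0.01. The macrophage genes Fcgr1 (0.47), Lyz2 (−0.21) and Mrc1 (−0.27) lay apart from each other. The interferon genes themselves had a median of −0.04. Their mean was only 5.58 to 6.08 in wide tumors, a level not shown to lie above background.

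A set of 8 relations was tested over the same mice with permutation tests, in which 1e-05 is the smallest p that 100000 resamples can give. Most pairs of members correlated at 0.5 or above, so a small p of such a pair adds little to its r. Ifit1 and Irf7 had a Pearson r of 0.93 and a Spearman rho of 0.93 (permutation p = 1e-05, adjusted p = 1.6e-05 for both), with r of 0.91, 0.95 and 0.93 within FVB, F1 and F1BX tumors. Psmb9 and Tap1 had r of 0.96 and rho of 0.96 (permutation p = 1e-05, adjusted p = 1.6e-05 for both), with r of 0.94 to 0.97 within backgrounds. The promoter windows of Psmb9 and Tap1 overlap, on opposite strands. Cxcl9 correlated with Ifit1 (r 0.59, rho 0.60), with Psmb9 (r 0.66, rho 0.63) and with Irf1 (r 0.47, rho 0.45), each with a permutation p of 1e-05 and an adjusted p of 1.6e-05. Without the 2 mice farthest from the median of the first gene, these 5 values of r were 0.92, 0.96, 0.60, 0.64 and 0.45.

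The same chemokine was compared with the T cell gene Cd3e and with the gene of type II interferon. Cxcl9 and Cd3e had r of 0.34 (permutation p = 7e-05, adjusted p = 9.3e-05) and rho of 0.34 (permutation p = 0.0001, adjusted p = 0.00013). Within backgrounds this relation passed in F1BX (r 0.41, adjusted p = 5.3e-05, permutation test) and not in FVB (r 0.29, adjusted p = 0.25, permutation test) or F1 mice (r 0.33, adjusted p = 0.28, permutation test). In F1 mice r was −0.01 without 2 mice. Ifit1 and Cd3e had r of 0.20 (permutation p = 0.02, adjusted p = 0.023) and rho of 0.19 (permutation p = 0.031, adjusted p = 0.035), and this relation passed within no background. Cxcl9 and Ifng had r of 0.03 (permutation p = 0.76, adjusted p = 0.76) and rho of 0.06 (permutation p = 0.48, adjusted p = 0.48). The mean of the 16 measured interferon genes, Ifng among them, was 5.58 to 6.08 in wide tumors. Array medians were 7.06 to 7.40. A signal of Ifng above background was not shown, so its correlation does not bear on type II interferon. Without 2 mice r was 0.32 for Cxcl9 and Cd3e, 0.23 for Ifit1 and Cd3e, and −0.01 for Cxcl9 and Ifng.

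High levels of the whole group were seen in some tumors. A tumor was counted as high when at least 19 of the 38 genes lay at least 1 log2 unit above the median of the tumors of its kind of array. This was so in 12 of 188 wide tumors (6.38%), of which 11 were F1BX (of 140), 1 was F1 (of 22) and none was FVB (of 26). No test was made of these counts. Of all probe sets, a median of 0.92% and at most 5.74% lay at least 1 log2 unit above the median in a wide tumor. In a narrow tumor these shares were 0.823% and 4.16%. Among narrow tumors 3 of 26 were high (149T1, F1_6T1 and 010T1). At the other end, 7 wide tumors, all F1BX, had at least 19 genes at least 1 log2 unit below the median, with the lowest mean difference in 207T1 (−1.38). The tumor 168T1, in which Erbb2 and Epcam were also low, was 1 of these 7.

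The tumor 084T1 stood highest. Its 38 genes lay on average 1.89 log2 units above the medians of the wide tumors, 35 of them by at least 1 and 12 by at least 2, while 2.75% of all probe sets lay at least 1 above. Cxcl10 was 11.56 in 084T1, whereas the other wide tumors lay between 6.28 and 8.76, the level of 201T1. Oas3 (10.70), Mx1 (10.47), Ifit3 (11.58), Rsad2 (12.32) and Ifit2 (11.14) were also highest in this tumor, whereas Irf9 (10.17) was near its median of 10.01. Cd274 was 10.30, or 2.71 above the median, and Ifnb1, at 5.78, was the highest of the wide tumors by a small amount (0.79 above the median). Of the 9 macrophage markers 7 lay below their medians, by most in Lyz2 (1.06), Adgre1 (0.92) and Csf1r (0.84), whereas Fcgr1 lay 0.81 and Cd68 0.22 above. Cd3e (6.94) and Cd8a (6.80) were at their medians.

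Genes of cytotoxic lymphocytes varied among the other high tumors. At most 5.74% of all probe sets lay at least 1 log2 unit above the median in any wide tumor. In 201T1 (mean difference 1.49, 29 genes at least 1 above) Gzmb, the granzyme of cytotoxic lymphocytes, was 1.68 above the median. In 288T1 (1.42, 28 genes) Gzmb was 2.07 and Cd8a 1.11 above the median, and in F27T1 (1.24, 26 genes), the high F1 tumor, Gzmb was 1.95 above it. In 265T4 (1.15, 24 genes) Gzmb lay 0.03 below the median. The tumor 292T2 had a mean difference of 1.35, above those of F27T1 and 265T4, and its Gzmb is not given here. These are values of single tumors and mainly of 1 marker gene, and the part of lymphocytes in them was not tested. Isg20 was highest in another tumor, 170T1 (10.09).

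**Figure D4:**
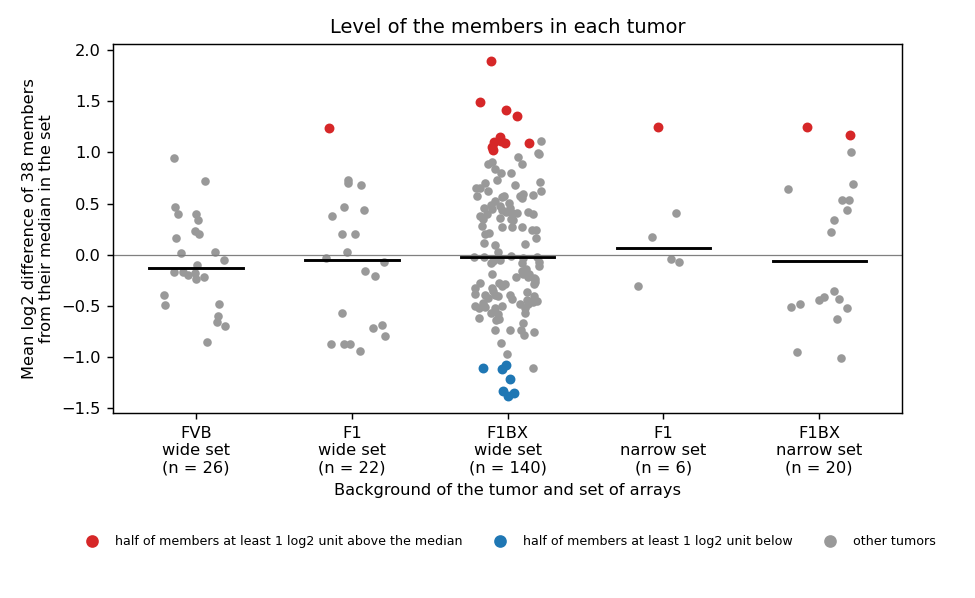
Mean difference of the 38 interferon response genes from the median of the tumors of the same kind of array (y axis, log2 units) for each tumor, by background and kind of array (x axis), 1 point per tumor array, with lines at the medians, red for tumors with at least 19 genes at least 1 log2 unit above the median and blue for those with as many below. In the wide arrays 084T1 lies highest at 1.89 and 207T1 lowest at −1.38, and the FVB tumors lie between −0.85 and 0.94.

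Tumors of the same mouse resembled each other somewhat. The correlation of wide arrays of 1 mouse, estimated for each gene with the background as a term, had a median of 0.26 over the 38 genes, against 0.09 over all probe sets. Oas3 (0.51) was the only 1 of the 38 (2.63%) at 0.5 or above, against 0.768% of all probe sets. Ifit2 (0.43) and Cxcl10 (0.42) followed, and Ddx58 (0.08) was lowest. In F1BX tumors alone the median was 0.36. Further interferon-induced genes had a median of 0.28 and T cell markers of 0.03. Measured by the mean of the 38 genes, 2 tumors of 1 mouse differed by a median of 0.49 log2 units (78 pairs), against 0.65 for tumors of different mice of 1 background (10208 pairs). Pairs that share a tumor are not independent, so no test was made.

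Single mice showed both patterns. Both tumors of mouse 078 were high (mean differences 1.11 and 1.10), and the 3 tumors of mouse 265 lay from 0.71 to 1.15. In mouse 275 by contrast the tumors lay at 1.09 and −0.56, in mouse 258 at 1.10 and −0.19, and in mouse 207 at 0.42 and −1.38. The 4 tumors of mouse 117 spread from −0.05 to 0.98.

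**Figure D5:**
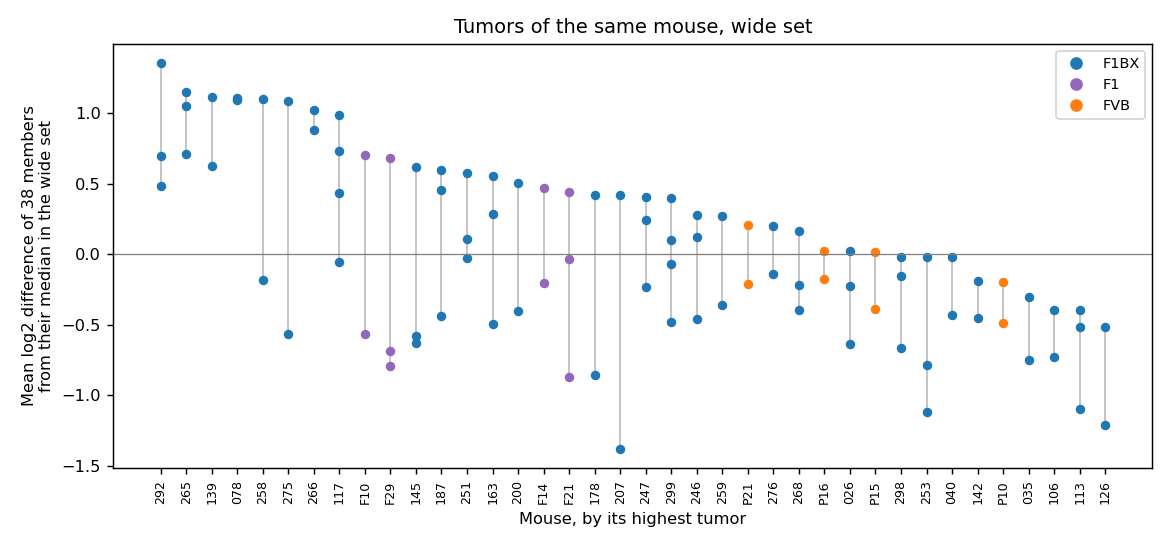
Mean difference of the 38 interferon response genes from the wide tumor median (y axis, log2 units) for the 38 mice with at least 2 wide tumor arrays (x axis, ordered by their highest tumor), 1 point per array, colored by background, with a line joining the tumors of a mouse. Mouse 078 has 2 tumors near 1.1, whereas mouse 207 spans from −1.38 to 0.42.

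The 2 repeat arrays were narrow whereas their first arrays were wide. Set against tumors of their own kind of array, 035T1 was low on both (−0.75 and −0.95), and 246T1 was 0.27 on the first and 0.54 on the repeat. The order of these 2 tumors was the same on both kinds of array.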

How the data were processed

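Total RNA of tumors (214 arrays) and of normal glands (8 arrays) was hybridized, with 1 tumor or gland on an array. By their names 2 arrays repeat a tumor, which leaves 212 tumors. The deposited values were log2 expression of 35556 probe sets, which the authors had normalized by RMA, and no genome build is stated for them. RMA sets values relative to the arrays normalized together. Probe sets were named by the platform annotation: 21789 carried 1 symbol, 1621 several and 12146 none. The authors' values ranged from 2.25 to 14.8. No depth exists for arrays, and their number limits the precision.

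Samples were grouped by the labels for tissue, genotype and background. Groups were compared with limma 3.58.1 (R 4.3.3, statmod 1.5.0) on all probe sets, with Benjamini-Hochberg adjustment over all of them. The mouse was a random block in the wide arrays (consensus correlation 0.0906 for the backgrounds), and in the narrow arrays each mouse has 1 array. Tumors and glands were compared at the thresholds of the methods of the study (FDR at most 0.005, 2-fold), and all other groups at an adjusted p under 0.05. The SAM statistic of those methods (100 permutations) was an alternative. The standard deviation filter of those methods was not applied. Correlations between tumors used the array of the lowest tumor number of each mouse, with numpy 2.4.6, pandas 2.3.3 and scipy 1.17.1 (Python 3.11.15), and figures were drawn with matplotlib 3.10.9. The scripts were tested on simulated data. Near-identical family members (such as those of Ifit3 and Oas1a) can share probes, and this was not tested.

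All measured members could be named. In each comparison those called were named by the size of the change, and other genes came from lists of pathway genes and cell markers. The members and all lists were chosen with earlier results of these data known. Alternatives covered the scaling, filter, probe set choice, control glands, mouse block, kind of array and each gland left out, and a few were chosen after seeing the data (member correlations by background, in narrow tumors and without tumors of low Erbb2).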

Additional observations from a re-analysis of the deposited data

Results flagged for a closer look

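A value was taken as standing apart when its gap to the nearest other value of the group, divided by the range of the group, exceeded the 95% critical value of Dixon's test. The test was made for the 38 genes in the 8 glands together and in the 6 narrow F1 tumors, 76 tests in all, and 16 (21.1%) passed, whereas chance flags about 1 in 20. The 38 genes are correlated, so these are not 16 independent events.

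In 8 genes the gland FVB MMTV-ErbB2 replicate 1 stood above the other 7. It had 9.97 for Irf7 (next 8.34), 9.19 for Zbp1 (next 8.16), 9.39 for Mx1 (next 7.67) and 10.97 for Cmpk2 (next 8.80). It also had 11.6 for Oasl1 (next 9.95), 9.72 for Usp18 (next 7.88), 8.83 for Ifi35 (next 8.21) and 9.11 for Xaf1 (next 8.02). In 4 genes FVB MMTV-ErbB2 replicate 3 stood below the others, with 7.25 for Ifih1 (next 9.07), 7.76 for Parp14 (next 9.73), 7.34 for Dtx3l (next 8.45) and 8.65 for Cxcl10 (next 11.9). Without replicate 1 of this group, 3 members were higher and 6 lower in tumors, and without replicate 3, 2 were higher and 7 lower.

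In the 6 narrow F1 tumors, F1_6T1 stood above the others with 7.86 for Oas3 (next 7.14), 10.7 for Psmb9 (next 8.99) and 10.7 for Tap1 (next 9.08). F1_26T1, a tumor with Erbb2 in the range of the glands, had 9.17 for Isg20 (next 7.98).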

How the results depend on the processing

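Between tumors and glands, 3 members were higher with the settings of the report. This number was 8 with all tumor arrays against all glands, 1 with only the MMTV-ErbB2 glands as controls and 7 at an adjusted p under 0.05 with no fold, and leaving out each gland gave 2 to 3. Lower members numbered 7, and 6 to 7 without each gland. Of 180 single-gene values under the alternatives, 169 kept direction and call and 11 kept direction only (Irf7 in 7, Mx2 in 3, Irf9 in 1). Some of the 169 could not have changed. The setting with no fold reuses the same fit under a looser rule, and averaging probe sets changes the values of no member but Irf1. No result reversed. Between MMTV-ErbB2 and wild type F1 glands the number of lower members went from 0 to 1 (Cxcl9) without FVB MMTV-ErbB2 replicate 3. Over all probe sets the calls then went from 0 to 1060 in both directions together, with 359 lower and 701 higher. With the spread of all narrow arrays, 327 probe sets were called in both directions together. Leaving out each gland gave 0 higher members in either gland comparison. Tumor counts over all probe sets between backgrounds fell at the stricter threshold, from 4357 to 172 (F1 and FVB), from 2398 to 36 (F1BX and FVB, 1414 with 1 array per mouse) and from 1297 to 5 (F1BX and F1). Tumors and glands had 4311 calls, 10026 with all tumor arrays and 18528 at an adjusted p under 0.05. The median agreement within mice was 0.26, and 0.36 in F1BX tumors. With permutation tests, the relation of Cxcl9 and Irf1 missed the threshold in FVB mice (r 0.45, adjusted p = 0.056), that of Cxcl9 and Cd3e in FVB (r 0.29) and F1 mice (r 0.33), and that of Ifit1 and Cd3e in FVB (r 0.0892), F1 (r 0.28) and F1BX mice (r 0.20). At 2 log2 units above the median, 0 wide and 0 narrow tumors were high. With the replicate number of the glands as a block, 0 members were called in both gland comparisons. Deviations of glands with the same number correlated from −0.19 to 0.39 (7 pairs), so the numbers were not taken to pair the samples. The causes were not tested.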
